A study of Mus musculus with 8 samples.

Results

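The protein genes of the cytosolic ribosome were followed through kidney injury in mice with and without a conditional deletion of Utx (Kdm6a), an X-linked histone H3 lysine 27 demethylase. Members were the protein-coding genes of the deposited table whose symbols follow the Rpl or Rps pattern of the cytosolic ribosome, including Rplp0 to Rplp2 and Rpsa and without the Rps6k kinases. The rule uses symbols and biotype, not measured values, and it gave 83 of 54965 genes. Of these, 51 belong to the large subunit and 32 to the small subunit, and they lie on 19 chromosomes. The ribosomal proteins Fau, Rack1 and Rpl36al fall outside the pattern and are given apart.

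Whole-kidney RNA was sequenced in 4 groups of 2 libraries: Utx Pax2-Cre knockout kidneys after ischemia-reperfusion (KO I/R), wild-type kidneys after ischemia-reperfusion (WT I/R), knockout kidneys without it (KO) and wild-type kidneys without it (WT). Ischemia-reperfusion stops the blood flow of the kidney for a time and then restores it. The shared protocol gives 3 days for I/R and names sham surgery and a later point that is not analysed here, and the labels of the kidneys without I/R do not say whether they were sham-operated. The sources used here state neither strain, sex nor age. Pax2 marks the lineage of the kidney epithelium, so cells outside the lineage of the Cre driver are not targeted. Nothing in the labels says that replicates came from separate animals, so p-values measure the spread between these libraries, which may be technical.

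The ribosome is built from ribosomal RNA and proteins in fixed proportions, so its protein genes are normally expressed together at high levels. Many of their messenger RNAs start with a run of pyrimidines, the 5′ terminal oligopyrimidine (TOP) motif, through which the kinase mTORC1 and the protein LARP1 control their translation and stability. Some family members have roles outside the particle, such as the binding of MDM2 by the proteins of Rpl5 and Rpl11. A few have paralogs that are used in particular tissues, such as Rpl3l in striated muscle and Rpl10l in testis.

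Values are FPKM (fragments per gene length and library size) as deposited, and they rest on 16780542 to 18497835 reads in genes per library. Tests were made with limma on log2(FPKM + 1) over the 13304 genes that averaged 1 FPKM or more. A call means a p under 0.05 after Benjamini-Hochberg adjustment over these genes. Of the 83 members 81 passed that level, and Rpl10l and Rpl39l did not. Differences below are on the log2(FPKM + 1) scale with their standard errors, and "rose" and "fell" are used of calls alone. Kdm6a itself had 1.59 and 1.83 FPKM in KO I/R kidneys, against 3.00 and 2.97 FPKM in WT I/R kidneys. It had 1.99 and 1.91 FPKM in KO kidneys, against 2.57 and 2.94 FPKM in WT kidneys. The KO groups were lower in both settings without overlap, and the difference was called after I/R (-0.56 ± 0.10, limma adjusted p = 0.0295) and not without it (-0.35 ± 0.10, limma adjusted p = 0.431).

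Replicates of both KO groups differed one way in the members. KO replicate 1 was above KO replicate 2 in 75 of 81 members, by a median of 0.28 on the log2 scale, against a median of 0.03 over all tested genes. KO replicate 2 was the lowest of the 8 libraries in 41 members. KO I/R replicate 1 was above KO I/R replicate 2 in 74 of 81 members, by a smaller median of 0.094, against 0.006 over all tested genes. In wild-type kidneys replicate 1 was above replicate 2 in 43 members after I/R and 31 without it.

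The summed level of the members was highest in the WT I/R kidneys. It came to 10664 and 10040.5 FPKM in KO I/R kidneys, against 13860 and 13924 FPKM in WT I/R kidneys. Without I/R it came to 11950.4 and 9798 FPKM in KO kidneys, against 10781 and 11147 FPKM in WT kidneys. Both WT I/R libraries lay above the other 6, whereas the KO I/R libraries lay within the range of the KO pair. As a share of all reads in genes, the members took 1.68% and 1.59% in KO I/R kidneys, against 2.37% and 2.35% in WT I/R kidneys. They took 1.61% and 1.39% in KO kidneys, against 1.54% in both WT kidneys. The share in KO I/R kidneys was 0.693 times that in WT I/R kidneys, and without I/R the KO share was 0.974 times the WT share. It was 0.901 times the WT share without KO replicate 1 and 1.05 times without KO replicate 2. I/R went with a ratio of 1.09 in KO kidneys (1.18 without KO replicate 1 and 1.01 without KO replicate 2) and of 1.53 in WT kidneys. With 2 libraries a group, an exact permutation test of a single value cannot reach p = 0.05, so these sums are given with no test. In whole-kidney RNA, fewer cells of a type and less RNA per cell cannot be told apart.

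**Figure D1:**
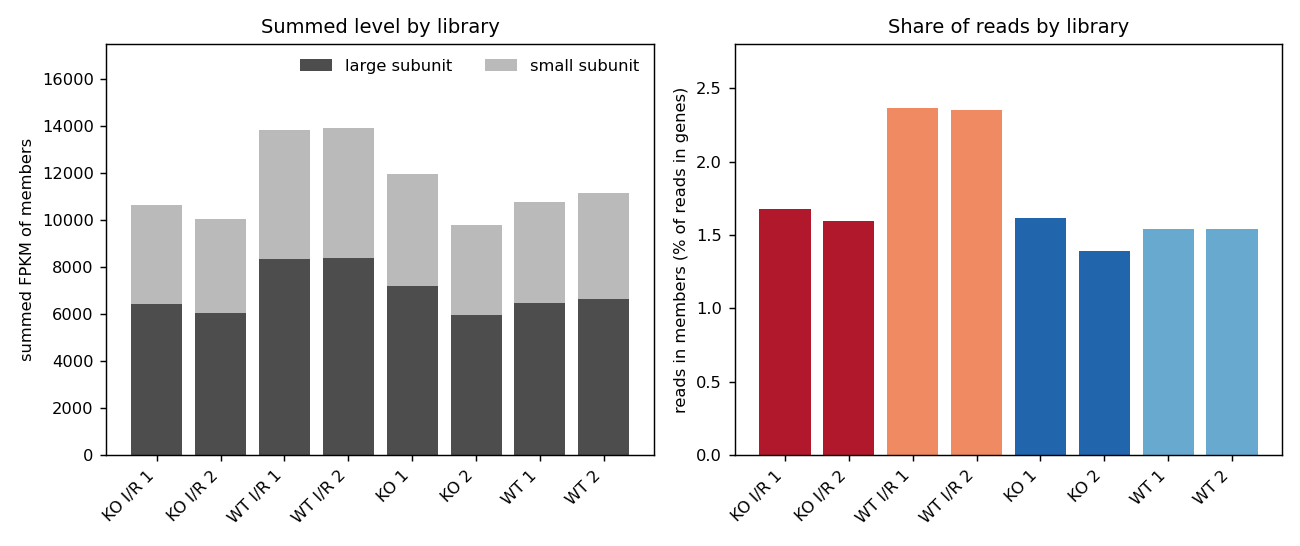
Summed FPKM of the 83 members by library, split into large and small subunit (left), and the percentage of reads in genes that fell in members (right), with 1 bar per library. The WT I/R libraries reach 13860 and 13924 FPKM and the other 6 lie between 9798 and 11950.4 FPKM.

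The large and small subunits kept nearly the same proportion throughout. The summed FPKM of the large subunit was 1.52 times that of the small subunit in both KO I/R libraries, against 1.51 and 1.52 times in WT I/R libraries. It was 1.51 and 1.55 times in KO libraries, against 1.501 and 1.47 times in WT libraries. The difference between WT I/R kidneys and the rest was seen in both subunits.

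In wild-type kidneys I/R was followed by higher levels across much of the family. WT I/R kidneys had 36 of 81 members called higher than WT kidneys, against a background of 17.4% of all tested genes (37.5% were called in either direction). A single member, Rpl3l, was called lower, against a background of 20.1%. The median difference was 0.35 over the members and -0.03 over all tested genes. By subunit, 20 of 49 large-subunit members and 16 of 32 small-subunit members rose, with medians of 0.31 and 0.36. In 68 members both WT I/R libraries lay above both WT libraries, against 33.4% of all tested genes. In 55 members both WT I/R libraries lay above all 6 other libraries, a count that was not made over all tested genes and so has no background. Fewer members were called when any of the 4 libraries compared was left out: 12 without WT I/R replicate 2, 20 without WT I/R replicate 1, 16 without WT replicate 1 and 13 without WT replicate 2. Over all tested genes 4992 were called with all libraries, and 3579, 3460, 3689 and 3181 without these in the same order.

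In the I/R comparison of wild-type kidneys 4 members had the largest called differences. In the coordinates of GRCm38 they are Rpl12 (ENSMUSG00000038900, chr2:32961559-32965345), Rps12 (ENSMUSG00000061983, chr10:23785183-23787275), Rpl13a (ENSMUSG00000074129, chr7:45125558-45128761) and Rpsa (ENSMUSG00000032518, chr9:120127689-120132369). Rpl12, part of the base of the ribosomal stalk, had 43.1 and 39.1 FPKM in KO I/R kidneys, 72.9 and 76.4 FPKM in WT I/R kidneys, 40.4 and 33.4 FPKM in KO kidneys and 38.1 and 38.9 FPKM in WT kidneys. The WT I/R libraries stood clear of the other 6, and Rpl12 rose with I/R in WT kidneys by 0.94 ± 0.10 (limma adjusted p = 6.92e-04). Rps12, a small-subunit protein, had 42.0 and 39.6 FPKM in KO I/R kidneys, 73.6 and 102 FPKM in WT I/R kidneys, 48.2 and 38.4 FPKM in KO kidneys and 57.7 and 49.2 FPKM in WT kidneys. Its WT I/R libraries were again above all others although they differed between themselves, and it rose by 0.69 ± 0.18 (limma adjusted p = 0.0208). Rpl13a, a large-subunit protein that also forms part of the interferon-induced GAIT complex, had 7.61 and 6.05 FPKM in KO I/R kidneys, 13.1 and 11.96 FPKM in WT I/R kidneys, 9.23 and 7.42 FPKM in KO kidneys and 7.46 and 7.28 FPKM in WT kidneys. It rose in WT I/R kidneys by 0.69 ± 0.13 over WT kidneys (limma adjusted p = 0.00602), and its KO I/R libraries overlapped both groups without I/R. Rpsa, the small-subunit protein also known as the laminin receptor, had 138 and 133 FPKM in KO I/R kidneys, 198 and 225 FPKM in WT I/R kidneys, 153 and 126 FPKM in KO kidneys and 142 and 137 FPKM in WT kidneys. It rose by 0.60 ± 0.11 (limma adjusted p = 0.00572), and the 6 libraries outside the WT I/R group lay together. The largest difference among the other members that rose was 0.59 (Rps20, of the head of the small subunit).

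The starts of these 4 genes are shown with those of Rpl7a and Rpl3l, which did not follow the family, because the TOP motif sits at the first bases of the messenger RNA. Each window holds 15 bases on either side of the RefSeq start, from the RefSeq table of GRCm38.p6, 5′ to 3′ on the strand of the gene, with its longest run of C and T in capitals. They lie at chr2:32961697-32961726 on the plus strand (Rpl12), chr10:23787195-23787224 on the minus strand (Rps12), chr7:45128731-45128760 on the minus strand (Rpl13a), chr9:120127751-120127780 on the plus strand (Rpsa), chr2:26910792-26910821 on the plus strand (Rpl7a) and chr17:24727811-24727840 on the plus strand (Rpl3l).
Rpl12: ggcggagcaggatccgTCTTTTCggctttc
Rps12: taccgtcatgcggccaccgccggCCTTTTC
Rpl13a: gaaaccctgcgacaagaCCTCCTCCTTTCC
Rpsa: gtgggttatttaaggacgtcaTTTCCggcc
Rpl7a: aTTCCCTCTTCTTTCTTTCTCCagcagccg
Rpl3l: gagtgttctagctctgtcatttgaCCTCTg
Within 20 bases on either side of the start, the longest run was 7 bases in Rpl12, 11 in Rps12, 14 in Rpl13a, 5 in Rpsa, 21 in Rpl7a and 5 in Rpl3l. The RefSeq start lay 153 bases from the deposited gene start for Rpl12 and 77 bases or less from it for the other 5.

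The table of starts holds 63 of the 83 members. A run of at least 8 C or T bases, read on the strand of the gene and within 20 bases of the start, was found in 30 of the 63 (47.6%) and in 18.4% of all 27025 genes of that table. The members with a run had a median I/R difference of 0.37 in WT kidneys, and the 31 tested members without one had 0.31. Of these, 14 with a run and 13 without rose. In the comparison of KO I/R with WT I/R kidneys the medians were -0.44 with a run and -0.37 without, with 9 and 6 members called lower. The run describes letters near the start and is not a mapped site, and the medians with and without it lay close together beside the spread of the members.

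Members on top of the level scale took part in the I/R difference to unequal extents. The stalk genes Rplp0, Rplp1 and Rplp2 encode the acidic proteins to which the translation factors bind. Rplp1 had the highest mean level of all members, with 831 and 779 FPKM in KO I/R kidneys, 1178.8 and 1178.7 FPKM in WT I/R kidneys, 906 and 746 FPKM in KO kidneys and 787 and 812 FPKM in WT kidneys. It rose in WT I/R kidneys by 0.56 ± 0.11 (limma adjusted p = 0.00779), a difference with no overlap between the groups. Rplp0 had 421 and 405 FPKM in KO I/R kidneys, 586 and 630 FPKM in WT I/R kidneys, 431 and 376 FPKM in KO kidneys and 406 and 422 FPKM in WT kidneys. It rose in WT I/R kidneys by 0.55 ± 0.09 (limma adjusted p = 0.00429), again with the WT I/R libraries clear of the rest. Rplp2 had 66.6 and 67.1 FPKM in KO I/R kidneys, 95.7 and 79.7 FPKM in WT I/R kidneys, 84.1 and 66.7 FPKM in KO kidneys and 73.8 and 68.0 FPKM in WT kidneys, and was not called (0.30 ± 0.13, limma adjusted p = 0.122). By mean level Rplp2 ranked 56, well below the other stalk genes. The members with the highest means after Rplp1 and Rplp0 were Rpl41, Rps15 and Rpl36. These differed by 0.19 ± 0.16, 0.26 ± 0.11 and 0.11 ± 0.11 and were not called. Levels are per deposited gene length, which counts all annotated exons of a gene: for Rpl18 it is 4043 bases where the coding length is 564.

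**Figure D2:**
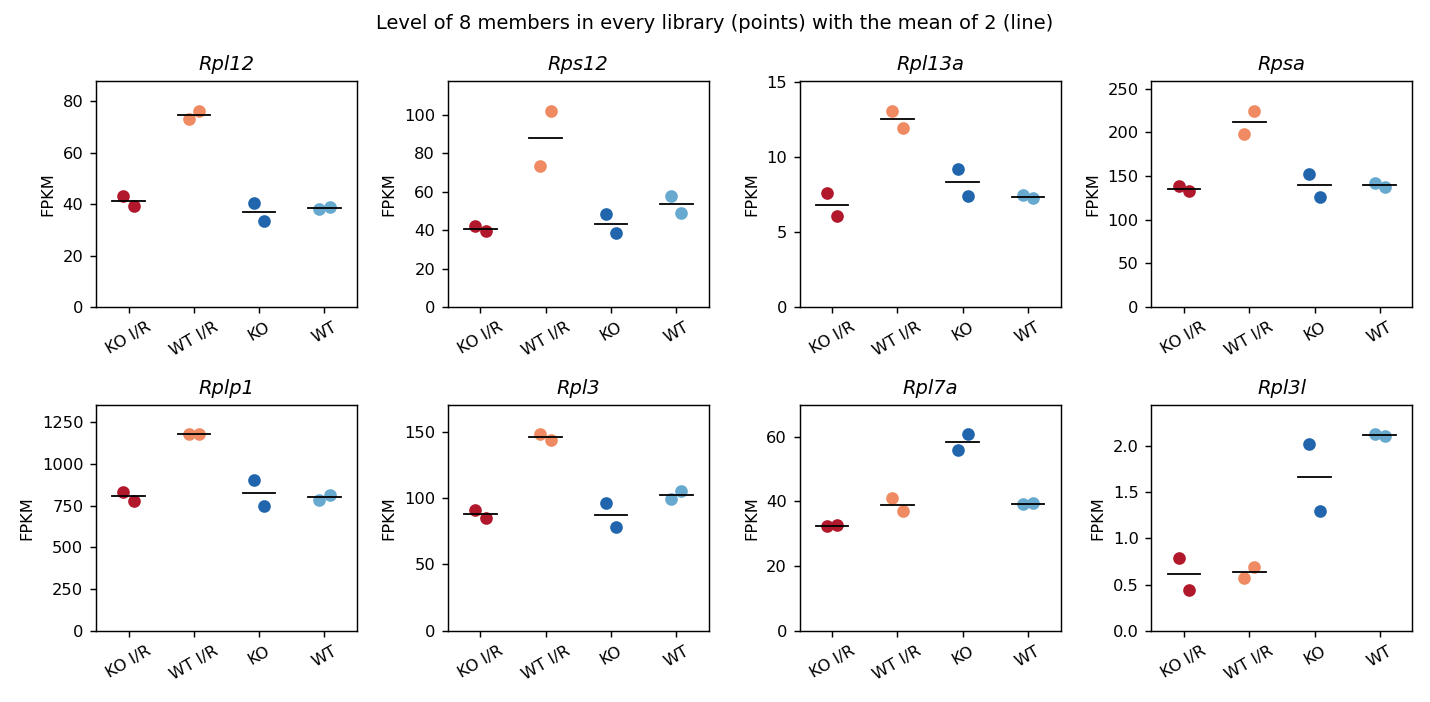
FPKM of 8 members in every library, with 1 point per library, a line at the mean of 2 and each vertical axis starting at 0. Rpl12, Rps12, Rpl13a, Rpsa, Rplp1 and Rpl3 have both WT I/R libraries above the other 6, while Rpl7a is highest in KO kidneys and Rpl3l is below 1 FPKM in all libraries after I/R.

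Members with known regulatory roles spread widely around the family median. Rpl5 and Rpl11, which with 5S RNA bind MDM2, differed by 0.31 ± 0.13 and 0.20 ± 0.09 in WT I/R kidneys and were not called (limma adjusted p = 0.0977 and 0.142). Rps6, the substrate of the S6 kinases, had 173 and 164 FPKM in KO I/R kidneys, 217 and 242 FPKM in WT I/R kidneys, 202 and 160 FPKM in KO kidneys and 187 and 176 FPKM in WT kidneys. Both WT I/R libraries were above the rest, and the difference of 0.34 ± 0.12 missed the threshold (limma adjusted p = 0.0689). Rpl10a, a protein found on only a part of ribosomes in mouse cells, had 104 and 102 FPKM in KO I/R kidneys, 148 and 165 FPKM in WT I/R kidneys, 106 and 83.3 FPKM in KO kidneys and 103 and 106 FPKM in WT kidneys. It rose by 0.58 ± 0.12 in WT I/R kidneys (limma adjusted p = 0.0093). By contrast, Rpl38, which in mouse embryos is needed for the translation of Hox messenger RNAs, differed by 0.19 ± 0.11 and Rps25, used in translation from internal entry sites, by 0.06 ± 0.14, neither called. Of the 4 X-linked members, Rps4x, Rpl36a and Rpl39 rose in WT I/R kidneys, by 0.59 ± 0.13, 0.55 ± 0.10 and 0.53 ± 0.13. Rps4x had 198 and 171 FPKM in KO I/R kidneys, 242 and 281 FPKM in WT I/R kidneys, 183 and 152 FPKM in KO kidneys and 175 and 171 FPKM in WT kidneys, with the WT I/R libraries highest. Rpl10, the other X-linked member, was not called (0.29 ± 0.11, limma adjusted p = 0.0831).

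Of the genes mutated in Diamond-Blackfan anemia, a human disorder of red cell formation, Rps19 had 49.0 and 46.4 FPKM in KO I/R kidneys, 69.6 and 60.5 FPKM in WT I/R kidneys, 53.0 and 44.8 FPKM in KO kidneys and 46.0 and 50.5 FPKM in WT kidneys. It was picked after its values were seen, and it rose with I/R in WT kidneys by 0.42 ± 0.11 (limma adjusted p = 0.0232) without being called between KO I/R and WT I/R kidneys (-0.44 ± 0.11, limma adjusted p = 0.0672).

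The ubiquitin fusion gene Rps27a varied too much between replicates for any comparison. It had 62.3 and 32.2 FPKM in KO I/R kidneys, 46.0 and 38.5 FPKM in WT I/R kidneys, 79.2 and 32.7 FPKM in KO kidneys and 82.1 and 40.7 FPKM in WT kidneys. Replicate 1 was above replicate 2 in every group, and the standard error of 0.51 covers all its differences. Replicates of one group also differed by more than 1.5 times for Rpl17, Rpl21, Rpl24, Rpl30, Rps3a1, Rps27 and Rps28.

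In knockout kidneys no member was called higher with I/R on the deposited scale. KO I/R kidneys had 0 of 81 members called higher than KO kidneys, against a background of 8.95%, and 2 called lower, against a background of 11.7% (20.7% in either direction). No member reached an unadjusted p under 0.05 in the higher direction and 3 did in the lower one, against 2021 and 2737 of all tested genes. By limma-voom on recovered reads, which keeps the library sizes of the deposited FPKM, 0 members were called higher, against 1453 of all tested genes. The median difference was -0.08 over the members and -0.03 over all tested genes. The direction of this median depended on the scale. The library sizes behind the deposited FPKM were 0.857 and 0.899 times the reads in genes in KO libraries. In KO I/R libraries they were 0.990 and 1.01 times. With each library rescaled to an equal sum of FPKM it was 0.18 over the members and 0.20 over all genes. On that scale 14 members were called higher and 2 lower, against 2753 and 502 of the 13304 tested genes. With library totals taken from reads outside the members, the median was 0.10 over the members and 0.12 over all genes. Then 2 members were called higher and 2 lower, against 2256 and 682 of all tested genes. Relative to all genes the members' median was -0.04 on the deposited scale and -0.02 on the equal-sum scale. It also changed sign with the KO library left out, at 0.08 without KO replicate 1 and -0.22 without KO replicate 2. Over all tested genes the median was -0.02 without KO replicate 1 and -0.04 without KO replicate 2. In 19 members both KO I/R libraries lay below both KO libraries, against 35.7% of all genes, and none lay above, against 27.8%.

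The members called lower in KO I/R kidneys were Rpl7a and Rpl3l. Rpl7a, a large-subunit protein, had 32.5 and 32.6 FPKM in KO I/R kidneys, 41.0 and 36.9 FPKM in WT I/R kidneys, 55.8 and 60.8 FPKM in KO kidneys and 39.3 FPKM in both WT kidneys. The KO libraries without I/R were the highest of the 8, and Rpl7a fell with I/R in KO kidneys by 0.82 on the log2 scale (standard error 0.08, limma adjusted p = 0.00173) while its difference in WT kidneys was -0.01 ± 0.08. The difference in KO kidneys was -0.88 without KO replicate 1 and -0.76 without KO replicate 2, and called in both fits. It was also the one member at an unadjusted p under 0.05 between KO and WT kidneys (0.56 ± 0.08, limma adjusted p = 0.393). Copies of Rpl7a named as pseudogenes held 26.2% of the reads given to the gene and its copies, and with their reads added the I/R difference in KO kidneys was -0.63 in place of -0.84 as a log2 ratio of library-scaled reads.

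Rpl3l fell with I/R in both genotypes. It had 0.793 and 0.444 FPKM in KO I/R kidneys, 0.575 and 0.689 FPKM in WT I/R kidneys, 2.02 and 1.30 FPKM in KO kidneys and 2.13 and 2.11 FPKM in WT kidneys. No library after I/R reached the lowest library without it, and the differences were -0.71 ± 0.18 in KO kidneys and -0.93 ± 0.18 in WT kidneys (limma adjusted p = 0.0326 and 0.00629). These values rest on 13 to 23 reads after I/R and 35 to 56 reads without it. The call in WT kidneys held with any library left out, while that in KO kidneys held without KO replicate 2 and ended in the other 7 of these 8 fits, with differences between -0.91 and -0.52. It also ended without a filter on low values (limma adjusted p = 0.0826) and with the compared groups alone in the fit (limma adjusted p = 0.0929). The muscle markers Acta1, Myh4 and Myh7 each had a mean below 1 FPKM, with Myh4 at 0 in all libraries. Their summed level was 0.549 to 0.843 FPKM in KO I/R kidneys, 0.670 to 0.882 FPKM in WT I/R kidneys, 0.0161 to 0.0751 FPKM in KO kidneys and 0.0502 to 0.0710 FPKM in WT kidneys.

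The other paralogs were compared with their core partners. Rpl3, partner of Rpl3l, was present at 90.8 and 84.7 FPKM in KO I/R kidneys, 148 and 144 FPKM in WT I/R kidneys, 96.2 and 78.0 FPKM in KO kidneys and 99.0 and 105 FPKM in WT kidneys, and it rose with I/R in WT kidneys by 0.51 ± 0.11 (limma adjusted p = 0.01). Rpl7l1 differed by -0.06 ± 0.08 in WT I/R kidneys where its partner Rpl7 rose by 0.52 ± 0.12. Rps27l, a p53 target, had 155 and 140 FPKM in KO I/R kidneys, 158 and 154 FPKM in WT I/R kidneys, 195 and 158 FPKM in KO kidneys and 159 and 167 FPKM in WT kidneys. Its mean of 161 FPKM was above the 123 FPKM of its partner Rps27 per deposited length. It differed by -0.06 ± 0.11 in WT I/R kidneys and -0.25 ± 0.11 in KO I/R kidneys. Rpl22l1, a relative of Rpl22, had 9.85 and 8.80 FPKM in KO I/R kidneys, 15.7 and 12.9 FPKM in WT I/R kidneys, 11.8 and 8.56 FPKM in KO kidneys and 11.1 and 10.5 FPKM in WT kidneys. It differed by 0.37 ± 0.15 in WT I/R kidneys and was not called, while Rpl22 rose by 0.37 ± 0.09. Rpl10l had no read in any library, where 3 reads, the limit that a count of 0 allows, correspond to 0.154 to 0.208 FPKM for a gene of 1 kb and its own length is 1023 bases. Rpl39l had 1 read, in WT replicate 2. The testis markers Ddx4, Prm1 and Tnp1 each had a mean below 1 FPKM. The differences between partners and paralogs were not tested.

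**Figure D3:**
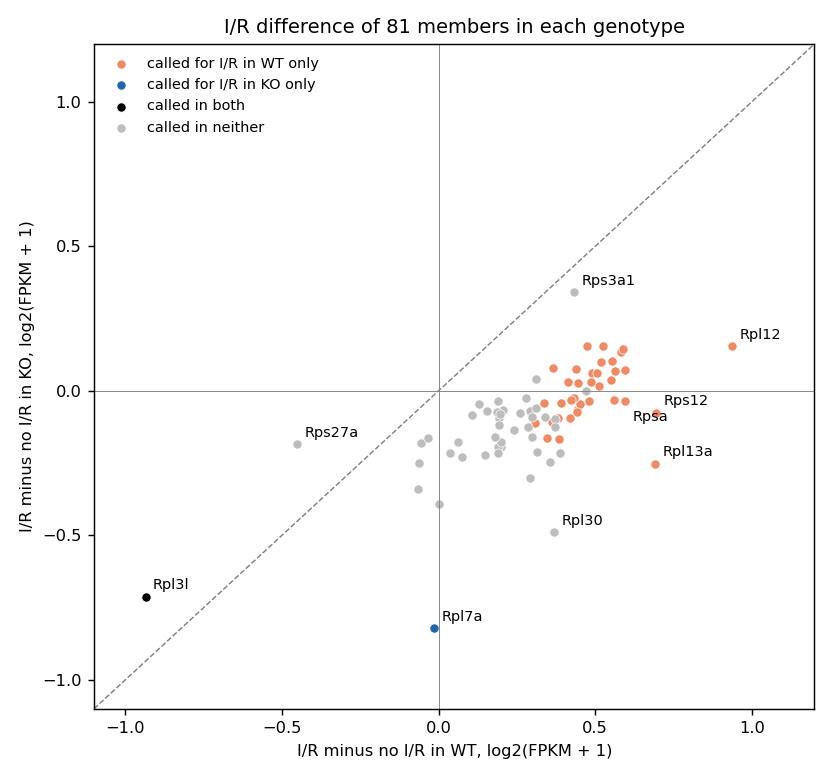
Difference between kidneys with and without I/R for 81 members, in WT kidneys on the horizontal axis and in KO kidneys on the vertical axis, both on log2(FPKM + 1), with equal values on the dashed line. 79 of the 81 points lie below the line, Rpl3l is low in both genotypes and Rpl7a in KO kidneys; with libraries rescaled to an equal sum the median on the vertical axis is 0.18 in place of -0.08.

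The I/R difference was smaller in KO than in WT kidneys for 79 of 81 members, with a median difference of differences of -0.42, against -0.0044 over all tested genes. The test of this interaction called 0 members, against a background of 0.286% of all tested genes (0.0752% higher and 0.21% lower). By limma 43 members had an unadjusted p under 0.05, all in the direction of a smaller difference in KO kidneys. Over the 13304 tested genes 1281 did so in that direction and 1027 in the other. By limma-voom on recovered reads 2 members were called, against 175 of all tested genes. The lowest adjusted p was that of Rpl7a (-0.81 ± 0.11, limma adjusted p = 0.0542), followed by Rpl12 (-0.78 ± 0.14, limma adjusted p = 0.084) and Rpl13a (-0.94 ± 0.18, limma adjusted p = 0.0882). The median was -0.28 without KO replicate 1, with 76 of 81 negative, and -0.54 without KO replicate 2, with 80 of 81 negative. Over all tested genes it was 0.0067 and -0.02 in these fits.

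After I/R the members were lower in knockout than in wild-type kidneys. KO I/R kidneys had 20 of 81 members called lower than WT I/R kidneys, against a background of 3.22%, and 0 called higher, against a background of 2.79% (6.01% in either direction). No member was at an unadjusted p under 0.05 in the higher direction, against 1594 of all tested genes, and limma-voom called none higher, against 686. The median was -0.38 over the members and 0.01 over all tested genes, and 80 of 81 differences were negative. By subunit 14 of 49 large-subunit and 6 of 32 small-subunit members fell, with medians of -0.38 and -0.44. In 74 members both KO I/R libraries lay below both WT I/R libraries, against 28.6% of all genes, and in none above both, against 29.7%. Of the 20 members called, 19 were also among those that rose with I/R in WT kidneys, and these comparisons share the WT I/R libraries.

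The number called in that comparison changed widely with the libraries and the fit. It was 0 without KO I/R replicate 1 or WT I/R replicate 2, 1 without KO I/R replicate 2 or WT I/R replicate 1, and 4 without either WT library, against 48 without either KO library. Calls over all tested genes moved the same way: 800 with all libraries, 8 without KO I/R replicate 1, 46 without WT I/R replicate 2, 10 without KO I/R replicate 2, 78 without WT I/R replicate 1, 443 and 446 without a WT library, and 1262 and 1257 without a KO library. The median over the members stayed between -0.45 and -0.37 in these fits. Without a filter on low values 1 member was called, with the replicate block 6, without the mean-variance trend 11, and limma-voom on recovered reads called 44, all lower. Over all genes tested these fits called 305, 461, 632 and 1503. With a mean of at least 5 FPKM there were 32 members, against 875 of all genes tested. With library totals taken from reads outside the members or libraries rescaled to an equal sum there were 57 and 58, again all lower. Over all tested genes these 2 scales called 1275 and 974.

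The members with the largest called differences after I/R were Rps12, Rpl12, Rpl13a and Rpl3. Rps12 averaged 40.8 ± 1.7 FPKM in KO I/R kidneys and 88.0 ± 20.3 FPKM in WT I/R kidneys (SD, n = 2 each), a difference of -1.07 ± 0.18 (limma adjusted p = 0.0247). Copies of Rps12 held 36.1% of the reads given to the gene and its copies, and with those reads added its log2 ratio was -0.92 in place of -1.11. Rpl12 differed by -0.85 ± 0.10 (limma adjusted p = 0.0125), Rpl13a by -0.80 ± 0.13 (limma adjusted p = 0.0237) and Rpl3, part of the peptidyl transferase region, by -0.73 ± 0.11 (limma adjusted p = 0.02). For Rpl3 the log2 ratio was -0.51 with the reads of its copies added and -0.73 without them. The stalk genes Rplp0 and Rplp1 fell by 0.56 and 0.55 on the log2 scale, Rpsa by 0.64 and Rpl10a by 0.59. Rpl36a was the one X-linked member called lower, by 0.56. Rpl30 had the widest difference of all (-1.25 ± 0.30), but its replicates differed by more than 1.5 times and it was not called (limma adjusted p = 0.0584).

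**Figure D4:**
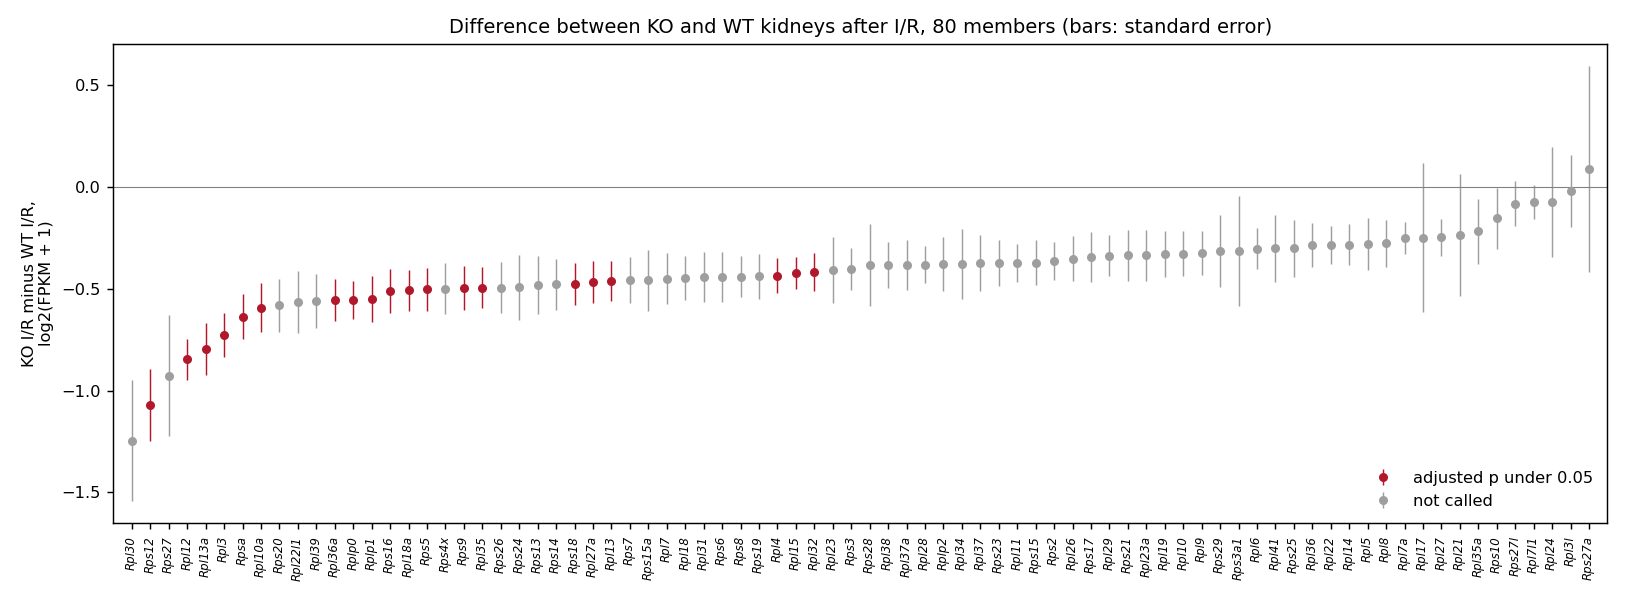
KO I/R minus WT I/R on log2(FPKM + 1) for 80 of the 81 tested members in order of size, with points at the difference, bars at the standard error and called members in red. All but Rps27a (0.09) lie below 0, and the called members lie between -1.07 and -0.42.

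Members near 0 in this comparison were the paralogs Rpl3l (-0.02 ± 0.18), Rpl7l1 (-0.07 ± 0.08) and Rps27l (-0.08 ± 0.11), Rps27a, and 2 members with few reads of their own, Rpl24 (-0.07 ± 0.27) and Rps10 (-0.16 ± 0.15). Most reads of some members had gone to copies. Among the deposited genes, 298 Rpl or Rps symbols carry the "-ps" form used for pseudogenes, and 60 members have such copies. Copies under other names were not counted, so the shares below cover named copies alone. Near-identical copies can split reads in a way the sources used here do not describe. Copies held 96.6% of the reads given to Rps10 and its copies, 81.3% for Rpl17, 43.5% for Rpl21 and 43.1% for Rpl34, so the levels of these genes are uncertain. With the reads of the copies added, the median over the 60 members was -0.43 in KO I/R against WT I/R kidneys and 0.36 for I/R in WT kidneys, against -0.44 and 0.37 without them.

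Without I/R the members did not separate the genotypes. Between KO and WT kidneys 0 of 81 members were called, against a background of 0.00752%. At an unadjusted p under 0.05 there was 1 member, against 1233 of all tested genes. By limma-voom 0 members were called, and 0 of all tested genes. The median was -0.01 over the members and 0.02 over all tested genes, with 36 differences positive and 45 negative. It was -0.14 without KO replicate 1 and 0.12 without KO replicate 2. In 2 members the KO libraries lay above both WT libraries and in 5 below, against 21.5% and 16.5% of all genes.

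Cell type markers moved between the same groups. The 4 proximal tubule markers (Slc34a1, Lrp2, Slc5a2, Slc22a6) summed to 1890 to 1998 FPKM in KO I/R kidneys, 1189 to 1264 FPKM in WT I/R kidneys, 2149 to 2661 FPKM in KO kidneys and 2229 to 2361 FPKM in WT kidneys. The 3 proliferation markers (Mki67, Top2a, Cdk1) summed to 11.5 to 13.4 FPKM in KO I/R kidneys, 18.1 to 21.4 FPKM in WT I/R kidneys, 1.32 to 1.46 FPKM in KO kidneys and 0.894 to 1.23 FPKM in WT kidneys. Both sums set the WT I/R kidneys apart from the KO I/R kidneys. The 3 fibroblast markers (Col1a1, Pdgfrb, Dcn) summed to 59.8 to 72.6 FPKM in KO I/R kidneys, 84.8 to 106 FPKM in WT I/R kidneys, 9.16 to 9.44 FPKM in KO kidneys and 9.21 to 12.3 FPKM in WT kidneys. The 3 macrophage markers (Adgre1, Cd68, Csf1r) summed to 31.1 to 32.6 FPKM in KO I/R kidneys, 35.2 to 41.8 FPKM in WT I/R kidneys, 14.8 to 17.7 FPKM in KO kidneys and 14.8 to 20.9 FPKM in WT kidneys. Fibroblast and macrophage sums were higher with I/R than without it in both genotypes. Not every marker followed its sum. Dcn had 7.38 and 6.09 FPKM in KO I/R kidneys and 5.87 and 7.44 FPKM in WT I/R kidneys. Csf1r had 16.0 and 16.5 FPKM in KO I/R kidneys, 15.5 and 17.9 FPKM in WT I/R kidneys and 15.9 and 11.7 FPKM in WT kidneys. Col1a1, Pdgfrb, Cd68 and Adgre1 were higher in both WT I/R than in both KO I/R libraries. The 2 distal convoluted tubule markers (Slc12a3, Pvalb) summed to 185 to 189 FPKM in KO I/R kidneys, 67.8 to 70.4 FPKM in WT I/R kidneys, 177 to 269 FPKM in KO kidneys and 209.7 to 222 FPKM in WT kidneys. The 3 erythroid markers (Hba-a1, Hbb-bs, Alas2) summed to 55.3 to 57.0 FPKM in KO I/R kidneys, 58.9 to 67.6 FPKM in WT I/R kidneys, 300.3 to 373 FPKM in KO kidneys and 333 to 710.5 FPKM in WT kidneys. None of these markers was at 0 in a library. The WT I/R kidneys thus had the lowest proximal and distal convoluted tubule sums and the highest proliferation, fibroblast and macrophage sums, and the part of cell makeup in the members' levels was not tested.

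Other genes of translation were followed in lists. Their shares stand beside those over all tested genes: 8.95% higher and 11.7% lower for I/R in KO kidneys, 17.4% and 20.1% for I/R in WT kidneys, and 2.79% and 3.22% for KO I/R against WT I/R kidneys. Among 19 further genes whose messenger RNAs carry TOP starts, 3 (15.8%) rose with I/R in KO kidneys and 10 (52.6%) in WT kidneys, and 6 (31.6%) were lower in KO I/R than in WT I/R kidneys, with medians of 0.03, 0.28 and -0.27. Npm1, the nucleolar protein nucleophosmin, had 56.5 and 52.1 FPKM in KO I/R kidneys, 82.1 and 91.4 FPKM in WT I/R kidneys, 44.5 and 37.4 FPKM in KO kidneys and 43.0 and 48.0 FPKM in WT kidneys. It rose with I/R in both genotypes, by 0.40 ± 0.11 in KO and 0.92 ± 0.11 in WT kidneys, and was lower in KO I/R than in WT I/R kidneys (-0.66 ± 0.11, limma adjusted p = 0.0263). Hnrnpa1, an RNA-binding protein of splicing, rose by 0.91 ± 0.08 in WT kidneys and by 0.47 ± 0.08 in KO kidneys, and Pabpc1, the poly(A)-binding protein, rose by 0.62 ± 0.07 in WT kidneys. Rack1, the scaffold protein of the small subunit, rose with I/R in WT kidneys by 0.51 ± 0.10 and was lower in KO I/R than in WT I/R kidneys (-0.54 ± 0.10). Fau, which encodes a small-subunit protein fused to a ubiquitin-like protein, was not called in any comparison, and Rpl36al had a mean below 1 FPKM.

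The host genes of small nucleolar RNAs, which guide ribosomal RNA modification, were followed next. Of 7 such genes with TOP starts 0 rose with I/R in KO kidneys and 5 (71.4%) in WT kidneys, and 2 (28.6%) were lower in KO I/R than in WT I/R kidneys. Snhg5 rose by 1.13 ± 0.21, Snhg1 by 0.85 ± 0.12 and Zfas1 by 0.79 ± 0.12 in WT kidneys. Snhg1 had 2.50 and 2.78 FPKM in KO I/R kidneys, 4.72 and 5.29 FPKM in WT I/R kidneys, 3.01 and 2.28 FPKM in KO kidneys and 2.23 and 2.42 FPKM in WT kidneys, with the WT I/R libraries clear of the rest. Among 30 genes of ribosomal RNA transcription and ribosome assembly, 2 (6.67%) fell with I/R in KO kidneys and 10 (33.3%) rose in WT kidneys, and 4 (13.3%) were lower in KO I/R than in WT I/R kidneys. The share that fell in KO kidneys was below that of all tested genes. Nop56 and Nop58, core proteins of box C/D particles, rose by 0.73 ± 0.11 and 0.71 ± 0.09 in WT kidneys and were lower in KO I/R kidneys by -0.59 ± 0.11 and -0.62 ± 0.09 than in WT I/R kidneys. Of 10 genes of ribosome quality control 2 were called higher with I/R in WT kidneys, near the 17.4% of all tested genes, and none in the other comparisons.

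Translation factors and their regulators were mixed. Of 38 initiation factors 1 (2.63%) rose and 3 (7.89%) fell with I/R in KO kidneys, 5 (13.2%) rose and 2 (5.26%) fell in WT kidneys, and 2 (5.26%) were lower in KO I/R than in WT I/R kidneys. The shares for I/R were below those of all tested genes in both directions. Eif6, which keeps the large subunit from joining too early, had 38.0 and 35.5 FPKM in KO I/R kidneys, 61.0 and 50.2 FPKM in WT I/R kidneys, 34.3 and 30.3 FPKM in KO kidneys and 30.3 and 26.4 FPKM in WT kidneys. It rose with I/R in WT kidneys by 0.95 ± 0.12 and was lower in KO I/R than in WT I/R kidneys (-0.58 ± 0.12). Of 12 tested elongation and termination factors 2 (16.7%) fell with I/R in KO kidneys, 3 (25%) rose in WT kidneys, and 2 (16.7%) were lower in KO I/R than in WT I/R kidneys. With so few genes the I/R shares lay near those of all tested genes. In the list of 16 mTORC1 and TOP regulators, Eif4ebp1, the inhibitor of the cap-binding factor eIF4E, rose with I/R by 0.63 ± 0.14 in KO and 1.47 ± 0.14 in WT kidneys, while Mtor, the kinase itself, fell by 0.51 in KO and by 0.88 in WT kidneys on the log2 scale. Eif4ebp1 was lower in KO I/R than in WT I/R kidneys (-0.74 ± 0.14, limma adjusted p = 0.0336).

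**Figure D5:**
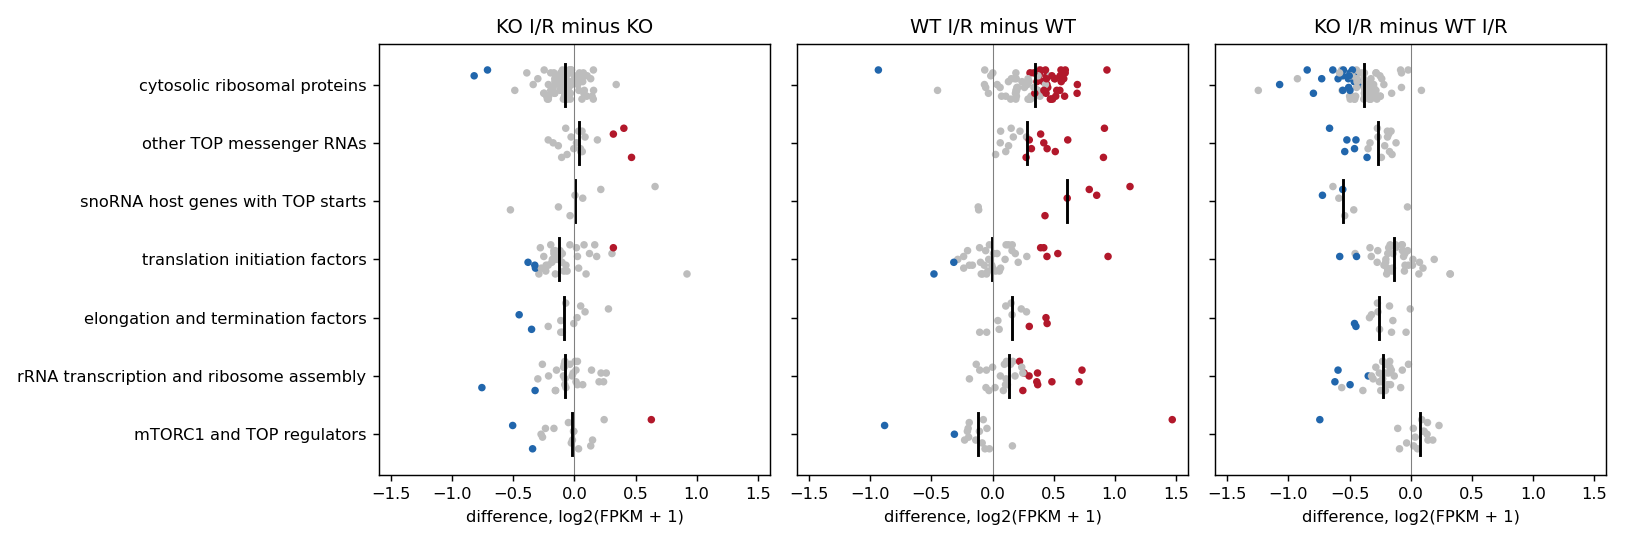
Difference of each gene on log2(FPKM + 1) in the cytosolic ribosomal protein family and 6 other lists, for KO I/R minus KO, WT I/R minus WT and KO I/R minus WT I/R, with called genes in red (higher) or blue (lower) and a bar at the median of a list. The family median is -0.08, 0.35 and -0.38 across the panels on the deposited scale, and with libraries rescaled to an equal sum the first is 0.18.

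The proteins of the mitochondrial ribosome, encoded in the nucleus and built into a separate particle, were set beside them. Of 77 tested genes, 37 (48.1%) fell with I/R in KO kidneys, against 11.7% of all tested genes. In WT kidneys 29 (37.7%) fell and 1 (1.30%) rose, against 20.1% and 17.4%, and the medians were -0.34 in KO and -0.24 in WT kidneys. These values are on the deposited scale, where the median of all tested genes was -0.03 in both. With libraries rescaled to an equal sum that median was 0.20 in KO and 0.24 in WT kidneys. The mitochondrial genes were not summarized on that scale, so the direction of their medians there is not known. Between KO I/R and WT I/R kidneys 1 of the 77 was called, higher in KO I/R kidneys, with a median of 0.03, where the cytosolic family had 20 of 81 called lower and a median of -0.38. The difference between the families was not tested.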

How the data were processed

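The measurements are FPKM per gene for 8 libraries, in a table that the authors deposited, with gene lengths and coordinates. Per the labels' protocols, messenger RNA was purified on poly-T beads and primed with random hexamers, and no step is stated that marks the strand, so overlapping antisense genes cannot be told apart. The tools named per the submitters' processing notes are DESeq2 1.20.0 and featureCounts 1.5.0-p3, and the build named is GRCm39. The sources used here give no aligner, strand setting or treatment of multi-mapped reads. Of 83 members, 81 had coordinates identical to a GRCm38 annotation, so positions are those of GRCm38.

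Multiplying FPKM by length gave whole reads for 100% of values (tolerance 0.05 reads), and so reads per gene and per library (16780542 to 18497835). The library sizes behind the FPKM differ from these totals. They were 0.905 and 0.883 times the reads in genes in WT libraries and 0.857 and 0.899 times in KO libraries. With I/R they were 1.07 and 1.05 times in WT I/R libraries and 0.990 and 1.01 times in KO I/R libraries. Floors on the recovered reads cover counting error only, and PCR copies are not separate molecules.

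limma 3.58.1 in R 4.3.3 was fitted to log2(FPKM + 1) for the 13304 genes averaging 1 FPKM or more, with a mean per group (4 residual and 2.90 prior degrees of freedom) and a mean-variance trend. Low genes change by more than this scale shows. Tests were two-sided, 5 contrasts were fitted, and p-values were adjusted over all tested genes of a contrast. The script was tested on simulated data.

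Members and lists were chosen with earlier results of these data known. Genes were named by rule: paralogs with partners, up to 4 called members per direction and comparison, the 4 highest and 4 lowest by mean, fixed role genes, and up to 3 called genes per list; members with unequal replicates, many copies or a difference outside the rule were chosen after their values were seen. Replicate numbers are not stated to mark a shared animal or day. No pair of replicates was close enough to be 1 library (mean chi-square per gene of at least 4.97). Some items are not reported here.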

Additional observations from a re-analysis of the deposited data

How the results depend on the processing

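With libraries rescaled to an equal sum of FPKM, 16 members were called for I/R in KO kidneys (median 0.18) and 70 for I/R in WT kidneys (median 0.65). There were 58 for KO I/R against WT I/R kidneys (median -0.50) and 1 for the interaction. Over all tested genes 3255, 5982, 974 and 51 were called in the same order. The median of all tested genes was then 0.20, 0.24 and -0.09 in the first 3 comparisons, and the members' median relative to it was -0.02, 0.40 and -0.40, against -0.04, 0.37 and -0.39 on the deposited scale. The ratio of summed FPKM was then 1.14 for I/R in KO kidneys, 1.56 for I/R in WT kidneys, the same as the ratio of shares of summed FPKM, and 0.691 for KO I/R over WT I/R kidneys. With library totals taken from reads outside the members, the counts were 4 (median 0.10), 65 (median 0.60), 57 (median -0.48) and 2. Over all tested genes 2938, 5959, 1275 and 88 were called on that scale, with medians of 0.12, 0.18 and -0.08 in the first 3 comparisons. Without a filter on low values 1, 22 and 1 members were called in the first 3 comparisons. With a mean of at least 5 FPKM the count was 1 for I/R in KO kidneys, 32 for KO I/R against WT I/R kidneys (median -0.41) and 1 for the interaction. Over the 7554 genes at that level 2156, 875 and 96 were called in the same order. With the compared groups alone in the fit, 1 member was called for I/R in KO kidneys, against 1556 of all tested genes. Without the mean-variance trend 11 were called for KO I/R against WT I/R kidneys, against 632. The library sizes behind the deposited FPKM were 0.857 to 0.905 times the reads in genes without I/R and 0.990 to 1.07 times with I/R. The scale with totals from reads outside the members does not use these sizes. How much of each shift comes from this was not tested. limma-voom on recovered reads was chosen after seeing the data. It kept the library sizes behind the deposited FPKM, so it does not check the scale. It called 44 members for KO I/R against WT I/R kidneys and 2 for the interaction. Over all genes it called 686 higher and 817 lower in KO I/R against WT I/R kidneys, and 175 in either direction for the interaction.

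The replicate numbers did not pair the samples, with correlations of -0.08 to 0.16 between the deviations of same-numbered libraries. With the replicate block, 6 members were called for KO I/R against WT I/R kidneys in place of 20, and the other comparisons kept their number of members called. With 1 library left out at a time, the count ranged from 1 to 9 for I/R in KO kidneys, 12 to 50 for I/R in WT kidneys, 0 to 48 for KO I/R against WT I/R kidneys and 0 to 3 for the interaction, and it was 0 throughout for KO against WT kidneys. The medians ranged from -0.22 to 0.0754, 0.33 to 0.35, -0.45 to -0.37, -0.54 to -0.28 and -0.14 to 0.12 in the same order. In these fits a lone library was taken to vary like the other groups. The number of calls over all tested genes also changed widely between them in the first 3 comparisons. The ranges of counts are therefore not particular to the members. The ratio of read shares ranged from 1.01 to 1.18 for I/R in KO kidneys, 1.52 to 1.54 in WT kidneys, 0.676 to 0.711 for KO I/R over WT I/R kidneys and 0.901 to 1.05 without I/R, and that of summed FPKM from 0.866 to 1.06, 1.25 to 1.29, 0.723 to 0.768 and 0.894 to 1.09. For single members named by rule, 336 of their alternative values kept the call, 87 lost it and none changed sign. The planned count models were not run because the deposited values are FPKM. Rpl3l, Rpl24, Rps10, Rpl10l and Rpl39l rest on few reads of their own, which limits them. For Rps10, 96.6% of the reads given to the gene and its copies lay in the copies.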
